A study of Homo sapiens with 12 samples.

Results

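A set of 9 genes of the phagocyte NADPH oxidase were followed: CYBB, CYBA, NCF1, NCF4, RAC1, RAC2, VAV1, PRKCD and HVCN1. They were the rows of the deposited gene table that carry these symbols, each present once, so 9 of 10465 rows. All 9 were above the expression filter (at least 1 FPKM in at least 3 libraries) and entered the test with 9751 genes in all. The RNA came from cells labelled as neutrophils made from HL-60 (an established human line of promyelocytic leukaemia), in 4 groups of 3 libraries. The groups were labelled with the agents given over 24 hours: 0.05 µg/mL BSA as control, 0.05 µg/mL AGEs (advanced glycation end products), 30 mmol/L D-glucose, and 0.05 µg/mL AGEs together with 30 mmol/L D-glucose. The labels name BSA for the control alone, so added glucose and absent BSA cannot be told apart in the glucose comparison. All cells were grown in RPMI medium with fetal bovine serum, and the agent used to induce them is not given in the sources used here. Whether a group's libraries are separate cultures is not stated, so every p-value reflects the spread among libraries, which may be technical.

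The phagocyte NADPH oxidase moves electrons from NADPH in the cytosol across a membrane to oxygen, which gives superoxide, the first product of the respiratory burst. Its membrane part is flavocytochrome b558, a pair of CYBB (also called NOX2), the catalytic chain that carries haem and FAD, and CYBA, the smaller chain that stabilises it. In resting cells the organising subunit NCF1 and the phosphoinositide-binding subunit NCF4 wait in the cytosol. On stimulation they move to the membrane together with a Rac GTPase, and loss of a core subunit causes chronic granulomatous disease.

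HL-60-derived cells carried neutrophil markers, with 8 of 10 listed markers in the table and S100A9 highest at a mean of 397 FPKM. Markers of other stages and lineages were present too: MPO of promyelocytes at 111 FPKM, CLC of eosinophils and basophils at 2362 FPKM and the dividing-cell gene TOP2A at 39.6 FPKM. CSF1R of monocytes stood at 8.5 FPKM, CD79A of B cells at 1.37 FPKM and CD3E of T cells at 1.29 FPKM, and 0 of 4 listed erythroid markers were among the rows used here. FPKM scales fragments by gene length and by the library's total, so levels can be compared between genes that share little sequence with others. The read depth behind each value is unknown. Libraries AGEs 1 and glucose 3 stood apart from the rest, with limma library weights of 0.181 and 0.418 against 0.797 to 1.82 for the other 10. Several results that rest on them are given with and without them. Ranges over the 12 libraries and the likeness to CYBB include both. AGEs 1 held the highest or lowest value of 5 of the 9 genes, and glucose 3 and glucose 1 that of 3 each.

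The oxidase genes ran from CYBB at 375 FPKM to HVCN1 at 8.49 FPKM, as means over the 12 libraries. CYBB ranked 54th of 10465 rows, NCF4 ranked 65th at 337 FPKM, and NCF1 and RAC2 ranked 137th and 138th at 179.6 and 179 FPKM. A lower tier held PRKCD at 68.4, CYBA at 68.2, RAC1 at 57.2 and VAV1 at 53.0 FPKM. Apart from HVCN1 the genes thus lay in the top 5.32% of the table, and HVCN1 lay lower, at rank 4141. Between neighbours in this order, the libraries' ranges were separate from NCF4 to NCF1 (1.88-fold), from RAC2 to PRKCD (2.62-fold) and from VAV1 to HVCN1 (6.24-fold). The other neighbours overlapped: CYBB was above NCF4 in 11 of 12 libraries, the exception being AGEs 1, and NCF1 was above RAC2 in 6 of 12. The place of NCF1 is uncertain, since 64.5% of the 100-base windows of its longest coding transcript are shared with pseudogenes. PRKCD and CYBA cannot be ordered, since PRKCD had the higher mean by 1.004-fold but was the higher of the pair in 3 of 12 libraries. CYBA exceeded RAC1 in 11 of 12 and RAC1 exceeded VAV1 in 10 of 12.

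**Figure D1:**
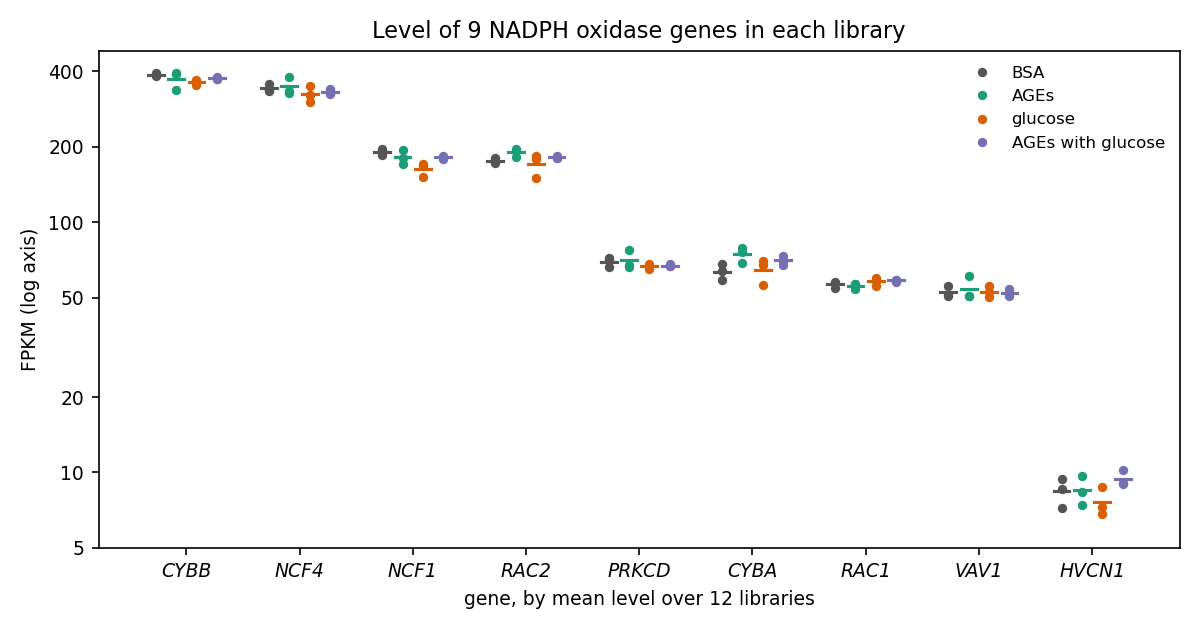
FPKM (vertical log axis) of the 9 oxidase genes, ordered by their mean over 12 libraries; points are single libraries, coloured by group, and short lines are group means (n = 3). CYBB at 375 and NCF4 at 337 FPKM lead, NCF1 and RAC2 form a second level near 179 FPKM, and HVCN1 lies apart at 8.49 FPKM.

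The proximal promoters of the paired membrane chains are shown because their transcripts differed 5.53-fold (median over libraries) although the proteins form one complex. The windows hold 250 bases before and 50 after the start of transcription, from RefSeq on GRCh38.p14, which is not the build named for the deposited values (hg19). CYBB is read from chrX:37779809-37780108 on the plus strand and CYBA from chr16:88651004-88651303 on the minus strand. Capitals mark matches to 3 motifs, searched on both strands. The CCAAT box is one. The purine-rich letters found in sites of PU.1 and its relatives, GAGGAA, are another. The GC box, spelled GGGCGG, completes the set.
CYBB: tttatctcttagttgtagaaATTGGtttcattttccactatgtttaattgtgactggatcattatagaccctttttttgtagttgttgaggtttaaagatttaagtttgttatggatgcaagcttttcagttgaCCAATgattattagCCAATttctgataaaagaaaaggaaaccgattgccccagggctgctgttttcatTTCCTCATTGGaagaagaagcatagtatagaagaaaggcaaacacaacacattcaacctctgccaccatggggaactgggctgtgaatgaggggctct
CYBA: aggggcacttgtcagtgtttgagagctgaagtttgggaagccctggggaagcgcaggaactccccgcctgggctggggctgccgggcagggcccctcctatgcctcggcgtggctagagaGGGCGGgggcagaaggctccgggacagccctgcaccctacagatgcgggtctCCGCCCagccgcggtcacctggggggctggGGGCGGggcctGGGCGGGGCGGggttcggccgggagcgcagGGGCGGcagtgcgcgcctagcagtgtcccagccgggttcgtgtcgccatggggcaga
The CYBB window was 37.7% G and C and held 4 matches to CCAAT, 1 to GAGGAA and 0 to GGGCGG. The CYBA window was 72.7% G and C and held 6 matches to GGGCGG, a pair of them overlapping, and 0 to either other motif. In CYBB the GAGGAA match and one CCAAT match adjoin, and both are read on the opposite strand. Over all 35116 promoter windows the median was 58.7% G and C, and CCAAT was found in 34.6%, GAGGAA in 27.9% and GGGCGG in 45.0%. Any link between these motifs and the transcript levels was not tested.

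No oxidase gene passed the test in any comparison (limma, Benjamini-Hochberg adjusted p under 0.05 over 9751 genes). Over the same genes 0.0308% were called for AGEs against BSA, 0.103% for glucose against BSA and 0.0103% for AGEs with glucose against BSA. At an unadjusted p under 0.05 the count was 1 of 9 for AGEs (CYBA), 1 of 9 for glucose (NCF1) and 0 of 9 for both agents, where 4.74%, 10.0% and 5.48% of all genes lay. Glucose was also compared with no glucose and AGEs with no AGEs over all groups (6 libraries a side), and the interaction of the agents was tested. There 0.041%, 0.0103% and 0.0103% of all genes were called and 8.99%, 5.84% and 4.89% had an unadjusted p under 0.05. Of the 9 genes the unadjusted threshold was passed by NCF1, CYBA and NCF1. The control alone was labelled with BSA, so absent BSA enters the comparisons over all groups and the interaction too. Each gene's log2 fold change against BSA lay between -0.22 and 0.23, and the 95% intervals, taken singly, reached from -0.38 (HVCN1 with glucose) to 0.43 (CYBA with AGEs). On the fold scale these bounds are 0.766 and 1.35. The median over the 9 genes was 0.01 for AGEs, -0.06 for glucose and -0.0067 for both, beside medians over all genes of -0.0017, -0.0015 and -0.0057.

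**Figure D2:**
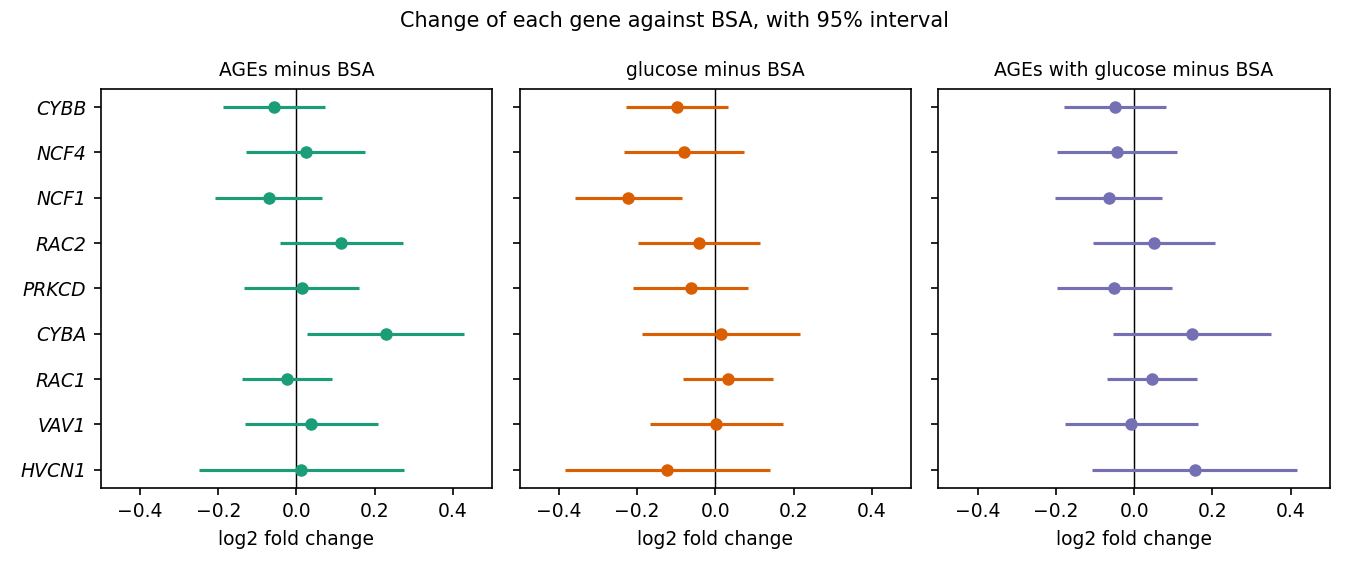
log2 fold change (horizontal axis, log2(FPKM + 1) scale) of the 9 genes in each stimulated group minus BSA; points are limma estimates and bars 95% intervals from 12 libraries. The intervals of CYBA with AGEs (0.03 to 0.43) and of NCF1 with glucose (-0.36 to -0.08) do not reach 0, and neither gene passed after adjustment over all genes.

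CYBB, the catalytic chain, was among the steadiest genes of the table. It stood at 384, 387 and 395 FPKM in BSA 1 to 3 and at 337, 391 and 395 in AGEs 1 to 3. In glucose 1 to 3 it stood at 367, 352 and 370.2 FPKM, and with both agents at 373, 380.2 and 374. All 6 libraries with glucose thus lay below the 3 BSA libraries, while AGEs 2 and 3 lay among them and AGEs 1 lay below every other library. The log2 fold change against BSA was -0.10 ± 0.06 (SE) for glucose (limma adjusted p = 0.646) and -0.05 ± 0.06 for both agents (adjusted p = 0.949). With AGEs alone it was -0.06 ± 0.06 (adjusted p = 0.979), and 0.02 without AGEs 1. For glucose against no glucose over all groups, CYBB was at -0.04 ± 0.04 (adjusted p = 0.776), and without AGEs 1 at -0.08 (adjusted p = 0.381). Highest over lowest library was 1.17-fold for CYBB, and 5.497% of genes had a smaller range on the log2(FPKM + 1) scale.

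CYBA, the partner chain of CYBB, had higher values in the libraries with AGEs. It stood at 63.9, 58.5 and 68.0 FPKM in BSA 1 to 3 and at 79.1, 76.0 and 68.4 in AGEs 1 to 3. In glucose 1 to 3 the values were 67.2, 69.7 and 56.1 FPKM, and with both agents 73.5, 67.7 and 69.8. The AGEs libraries all lay above the BSA libraries, by a margin of 68.4 to 68.0 FPKM at the closest, and the remaining groups overlapped BSA. CYBA averaged 63.5 ± 4.78 FPKM with BSA and 74.5 ± 5.51 with AGEs (SD, n = 3), a log2 fold change of 0.23 ± 0.09 (SE; limma unadjusted p = 0.03, adjusted p = 0.975). Without AGEs 1 it was 0.18 (adjusted p = 0.684). For AGEs against no AGEs over all groups, CYBA gave 0.18 ± 0.06 (adjusted p = 0.758). Without glucose 3, the lowest CYBA library, this was 0.13 (adjusted p = 0.978), and without that library and AGEs 1 together it was 0.11. Summed promyelocyte markers stood at 110 to 137 FPKM with AGEs and 127 to 130 with both agents, against 105 to 117 with BSA and 92.5 to 94.3 with glucose (4 of 5 in the table, none at 0). Summed eosinophil and basophil markers ran from 2183 to 2453 FPKM with BSA, 2419 to 2582 with AGEs, 2378 to 2615 with glucose and 2684 to 2769 with both agents (6 of 9 in the table, none at 0). Most of each sum came from a single gene, MPO with a mean of 111 FPKM and CLC with a mean of 2362 FPKM over the 12 libraries. Summed neutrophil markers ran from 677 to 736 FPKM with BSA, 695 to 732 with AGEs, 629 to 762 with glucose and 726 to 755 with both agents. Summed monocyte markers ran from 16.2 to 19.6 FPKM with BSA, 15.8 to 17.6 with AGEs, 13.8 to 14.3 with glucose and 16.4 to 16.5 with both agents. The part of any of these lists in the CYBA values was not tested, and in bulk RNA fewer cells of a type and less RNA per cell cannot be told apart.

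Between the membrane chains, CYBB exceeded CYBA in every library, from 4.26-fold in AGEs 1 to 6.62-fold in BSA 2. CYBA over CYBB, a ratio in which a library's scaling cancels, lay between 0.151 and 0.172 with BSA and between 0.173 and 0.235 with AGEs. With both agents it lay between 0.178 and 0.197, wholly above BSA and inside the AGEs range. With glucose it lay between 0.151 and 0.198 and overlapped every other group. The log2 ratio was higher by 0.19 in the 6 libraries with AGEs than in the 6 without (exact two-sided permutation test, p = 0.0584, 0.234 adjusted over 6 ratio tests). Without AGEs 1 the difference was 0.13 and without glucose 3 it was 0.15.

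NCF1, the organising subunit whose phosphorylation starts assembly, had its lowest values with glucose alone. It stood at 196, 186 and 191 FPKM in BSA 1 to 3, and at 195, 181 and 170.2 in AGEs 1 to 3. In glucose 1 to 3 it stood at 168, 171 and 152 FPKM, and with both agents at 183, 179.6 and 184. Every glucose library lay below every BSA library, and so did each library with both agents, by a narrower margin. NCF1 averaged 191 ± 5.16 FPKM with BSA and 164 ± 10.1 with glucose (SD, n = 3), a log2 fold change of -0.22 ± 0.06 (SE; limma unadjusted p = 0.00439, adjusted p = 0.295). Without glucose 3 it was -0.17 (adjusted p = 0.297). Against BSA, both agents together gave -0.06 ± 0.06 (adjusted p = 0.924). Glucose minus BSA was -0.22, and both agents minus AGEs exceeded it by a log2 difference of 0.23 ± 0.09 (limma interaction term, unadjusted p = 0.0252, adjusted p = 0.965). Without glucose 3 this difference was 0.18 (limma unadjusted p = 0.0513, adjusted p = 0.794). Without AGEs 1 it was 0.28 (limma unadjusted p = 0.00457, adjusted p = 0.405). Only glucose minus BSA involves the group labelled with BSA. A changed response to glucose and absent BSA thus cannot be told apart in the interaction. Summed monocyte markers were also lowest with glucose alone, at 13.8 to 14.3 FPKM (2 of 6 markers in the table, CSF1R and LYZ, neither at 0). They stood at 16.2 to 19.6 FPKM with BSA and 15.8 to 17.6 with AGEs. With both agents they stood at 16.4 to 16.5 FPKM, inside the BSA range, whereas NCF1 lay below its BSA range there. The promyelocyte sums given above were likewise lowest with glucose alone. Summed neutrophil markers ran from 629 to 762 FPKM with glucose, on both sides of the BSA range of 677 to 736. The part of these lists in the NCF1 values was not tested. NCF1 is also uncertain as a gene. Of the 100-base windows of its longest coding transcript in GENCODE, 64.5% occur unchanged in transcripts of the pseudogenes NCF1B and NCF1C, and how the authors' processing assigned such reads is not given in the sources used here.

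NCF4, which binds a phosphoinositide of phagosome membranes, was the second most abundant of the set. Its values were 334, 357 and 337 FPKM in BSA 1 to 3, 382, 336 and 329.6 in AGEs 1 to 3, and 301, 323 and 350.5 in glucose 1 to 3. With both agents it stood at 332, 326 and 339.6 FPKM, and every group overlapped BSA. NCF1 over NCF4 was 0.434 in glucose 3 and 0.510 to 0.586 in the other 11 libraries, so NCF4 had the higher value of the pair throughout. The NCF1 side of this ratio carries the pseudogene uncertainty given above, so the order of the transcripts is not settled. The log2 ratio differed by -0.04 between libraries with and without glucose and by 0.01 between those with and without AGEs (exact permutation test, adjusted p = 0.924 for either). Without glucose 3 these differences became 0.02 and -0.04.

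**Figure D3:**
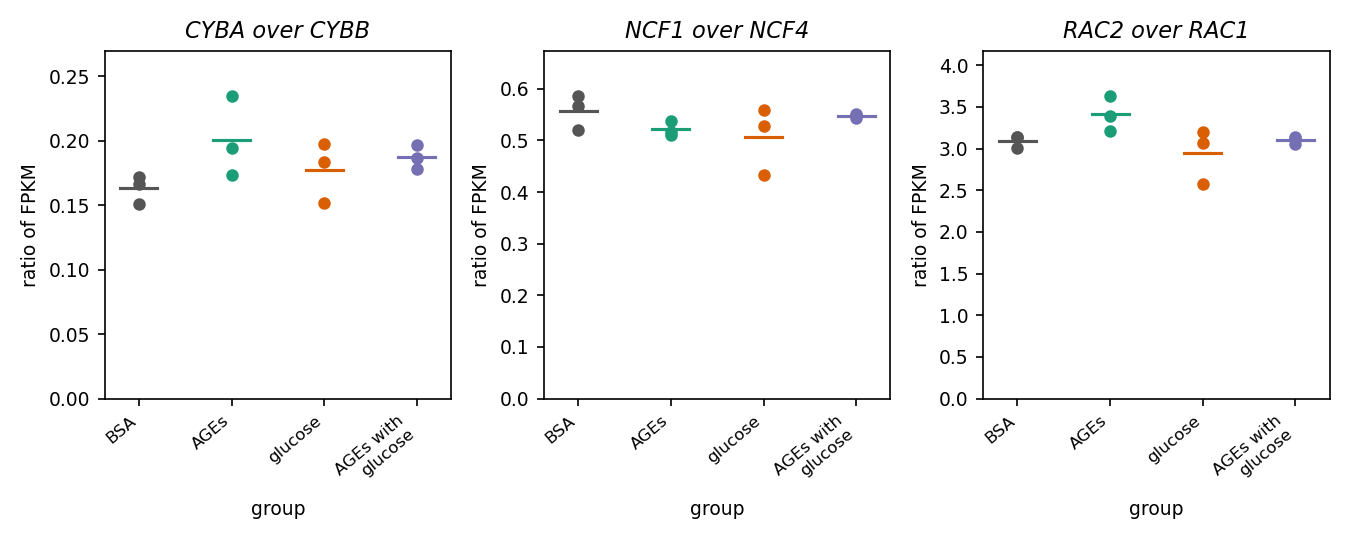
Ratio of FPKM within a library (vertical axis from 0) for CYBA over CYBB, NCF1 over NCF4 and RAC2 over RAC1, by group; points are libraries and lines group means (n = 3). CYBA over CYBB lies between 0.151 and 0.172 with BSA and 0.173 and 0.235 with AGEs; glucose 3 is the lowest point of NCF1 over NCF4 (0.434) and of RAC2 over RAC1 (2.58).

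RAC2, the Rac GTPase of blood cells, exceeded the widely expressed RAC1 in every library, by 2.58-fold to 3.63-fold. RAC2 stood at 180.1, 172 and 174 FPKM in BSA 1 to 3 and at 193, 195 and 181 in AGEs 1 to 3. With glucose it stood at 184, 178 and 150.3 FPKM, and with both agents at 184, 180.0 and 181. The AGEs libraries again lay above the BSA libraries, narrowly, at a log2 fold change of 0.12 ± 0.07 (SE; limma adjusted p = 0.977). In glucose the first pair of libraries overlapped or exceeded BSA and glucose 3 was the lowest of all 12. The fold change for glucose, -0.04 ± 0.07, became 0.05 without it.

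RAC1 varied less than any other gene of the set, from 53.8 FPKM in AGEs 2 to 60.0 in glucose 1. Its group means were 56.7 ± 1.64 FPKM with BSA, 55.7 ± 1.64 with AGEs, 58.0 ± 2.16 with glucose and 58.5 ± 0.786 with both agents (SD, n = 3). The groups with AGEs alone and glucose alone overlapped BSA, and so did both agents together. Only 0.851% of tested genes had a smaller range over the 12 libraries, while 11.5% of the 100-base windows of the longest RAC1 transcript are shared with the pseudogene RAC1P2. RAC2 over RAC1 was 3.001 to 3.14 with BSA, 3.21 to 3.63 with AGEs, 2.58 to 3.20 with glucose and 3.05 to 3.14 with both agents. The log2 ratio differed by 0.11 between libraries with and without AGEs (exact permutation test, p = 0.0996, adjusted p = 0.234), and by 0.066 without glucose 3. For glucose it differed by -0.10 (exact permutation test, p = 0.117, adjusted p = 0.234), and by -0.06 without glucose 3.

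Of the upstream activators, VAV1, an exchange factor that loads Rac with GTP, ran from 50.4 FPKM in glucose 1 to 60.9 in AGEs 1. Apart from AGEs 1, its values lay between 50.4 and 55.8 FPKM, and each group overlapped BSA. PRKCD, the protein kinase C isoform that phosphorylates NCF1, stood at 72.1, 70.8 and 66.0 FPKM in BSA 1 to 3 and at 77.6, 66.3 and 67.4 in AGEs 1 to 3. With glucose it was at 66.7, 64.8 and 68.2 FPKM and with both agents at 66.8, 66.6 and 68.0. The glucose libraries lay at or below the lower part of the BSA range and overlapped it (log2 fold change -0.06 ± 0.07 SE, limma adjusted p = 0.811). Without BSA 3 the log2 fold change was -0.10 and without BSA 1 it was -0.04.

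HVCN1, the voltage-gated proton channel that balances the charge carried by the oxidase, was the least abundant and the most variable of the set. Its range was not unusual for the table, since 58.6% of genes tested had a smaller one on the log2(FPKM + 1) scale. For CYBA, the next most variable of the set, this share was 54.1%. HVCN1 stood at 9.38, 8.61 and 7.22 FPKM in BSA 1 to 3 and at 8.39, 9.65 and 7.42 in AGEs 1 to 3. In glucose 1 to 3 it stood at 7.29, 6.84 and 8.79 FPKM, and with both agents at 8.99, 9.12 and 10.2. The libraries with both agents overlapped BSA. They lay above those with glucose alone, by 8.99 to 8.79 FPKM at the closest. How many of all genes separate these groups was not counted, and this comparison was not tested. Against BSA its log2 fold changes were -0.12 ± 0.12 (SE) for glucose and 0.16 ± 0.12 for both agents (limma adjusted p = 0.796 and 0.909). The first was -0.22 without glucose 3, -0.22 without BSA 3, -0.055 without glucose 2 and -0.048 without BSA 1. The second was 0.062 without BSA 3 and 0.10 without the third library with both agents. HVCN1 overlaps TCTN1 on the opposite strand in GENCODE, and NCF4 overlaps the antisense gene NCF4-AS1. CYBB overlaps AF241726.2 on its own strand, and the strand setting of the counting is not given in the sources used here.

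**Figure D4:**
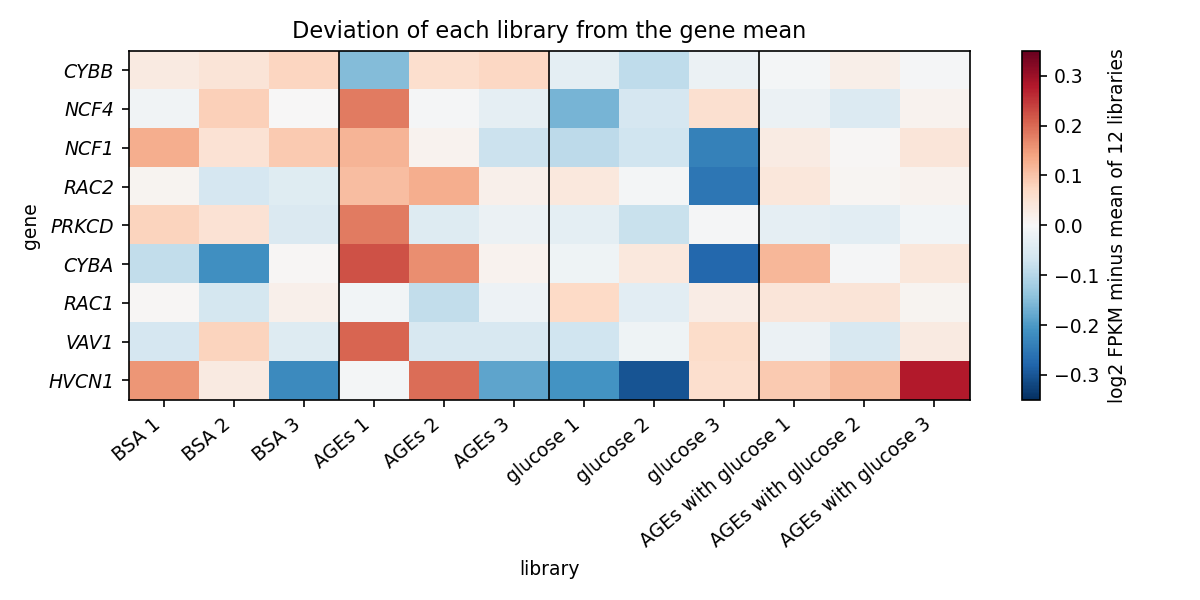
log2 FPKM of each oxidase gene (rows) in each library (columns) minus that gene's mean over 12 libraries; red is above and blue below the mean, and black lines part the groups. AGEs 1 is the highest library for 4 genes and lowest for CYBB, and glucose 3 is the lowest for CYBA, NCF1 and RAC2.

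Groups that did not overlap were counted for each comparison with BSA. With AGEs these were CYBA and RAC2, 2 of 9 and both higher, where 4.82% of all genes tested lay wholly higher and 3.98% wholly lower. With glucose they were CYBB and NCF1, both lower, where 9.03% of all genes lay wholly lower and 7.92% wholly higher. With both agents they were again CYBB and NCF1, where the shares were 9.14% lower and 8.51% higher. The BSA libraries are shared by the 3 comparisons, so these are not separate observations. Over the 12 libraries the median range of the 9 genes was 1.27-fold, beside 1.29-fold over the 602 genes with a mean of at least 50 FPKM and 1.38-fold over all genes tested (log2(FPKM + 1) scale).

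Genes whose profile over the 12 libraries lay closest to that of CYBB were RYBP, TNKS2, MCL1, UBE2J1 and RPS6KA3. Likeness was the root mean square difference of centred log2(FPKM + 1) values, over 5926 genes with a mean of at least 5 FPKM. It ran from 0.02 for RYBP to 0.03 for RPS6KA3, beside a median of 0.14. The spread of CYBB about its own mean was 0.07, which is the distance a flat profile would have, and every other oxidase gene lay farther than that. RAC1 was nearest of them at 0.08, and HVCN1 at 0.16 and CYBA at 0.17 were above the median.

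Other genes of the pathway were read from 8 lists with 123 entries, of which 101 were in the table and 99 were tested. None of the 99 was called in the comparisons with BSA (limma), and 8, 12 and 5 had an unadjusted p under 0.05 for AGEs, glucose and both agents. These are shares of 8.08%, 12.1% and 5.05%, beside 4.74%, 10.0% and 5.48% of all genes. Over all genes tested 50.5%, 50.4% and 52.1% lay below 0 in these comparisons. Whether any list differs from all genes was not tested.

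Among other oxidase parts and homologues 5 of 12 were in the table, and 4 of the 5 lay below 0 with glucose. The share over all genes was 50.4%. RAP1A, a small GTPase found with flavocytochrome b558, measured 31.3 ± 1.06 FPKM in BSA libraries and 25.0 ± 5.98 with AGEs (SD, n = 3; limma adjusted p = 0.977). C17orf62, now called CYBC1 and needed for stable CYBB protein, measured 12.5 ± 1.48 FPKM in BSA libraries and 11.4 ± 0.607 with glucose.

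Rac regulators had 14 of 17 genes tested, 9 of them below 0 with AGEs and 10 with glucose. Over all genes 50.5% and 50.4% lay below 0. ARHGDIB, the inhibitor that holds Rac in the cytosol of blood cells, was as abundant as CYBB at 390 ± 38 FPKM in BSA libraries and 411 ± 34.6 with glucose (SD, n = 3). Its relative ARHGDIA measured 77.6 ± 1.88 FPKM in BSA libraries, and the exchange factor PREX1 was at 64.8 ± 4.61. ELMO1, partner of DOCK-family exchange factors, measured 7.51 ± 1.06 FPKM in BSA libraries and 6.33 ± 0.57 with both agents (limma adjusted p = 0.892).

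Of upstream kinases and lipid signals, 20 of 24 lay below 0 with glucose, at a median log2 fold change of -0.08, none was called (limma) and 3 had an unadjusted p under 0.05. Over all genes tested 50.4% lay below 0 with glucose and 10.0% had such a p, and whether the list differs from them was not tested. PIK3CG, the phosphoinositide 3-kinase of chemoattractant receptors, measured 158 ± 8.51 FPKM in BSA libraries, 142 ± 9.43 with AGEs, 141 ± 6.33 with glucose and 139 ± 1.26 with both agents (SD, n = 3; limma adjusted p = 0.457 for glucose). The Src-family kinases FGR and LYN were at 118 ± 6.88 and 70.7 ± 4.37 FPKM with BSA. PRKCQ, a protein kinase C isoform, measured 2.92 ± 0.3 FPKM in BSA libraries and 2.3 ± 0.201 with glucose (limma adjusted p = 0.311).

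Receptors that trigger the burst were below 0 with glucose in 13 of 15, at a median of -0.11, with 5 at an unadjusted p under 0.05 (limma). Over all genes tested these shares were 50.4% and 10.0%, and whether the list differs from them was not tested. ITGB2 and ITGAM, the chains of the integrin Mac-1, stood at 195 ± 0.806 and 70.8 ± 4.47 FPKM in BSA libraries and at 163 ± 11.1 and 59.2 ± 2.7 with glucose (SD, n = 3; limma adjusted p = 0.31 and 0.374). CSF2RB, the shared chain of the GM-CSF receptor, measured 87.2 ± 1.1 FPKM in BSA libraries and 78.9 ± 0.706 with glucose (limma adjusted p = 0.394). PTAFR, the receptor of platelet-activating factor, was chosen after its values were seen, since it had the smallest p of this list. It measured 12.5 ± 0.114 FPKM in BSA libraries, 10.2 ± 0.372 with glucose and 12.5 ± 0.38 with both agents (limma adjusted p = 0.16 for glucose).

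Genes that supply NADPH were split, with 8 of 14 above 0 with glucose, where 50.4% of all genes lay below 0. PGD, an NADPH-forming enzyme of the pentose phosphate pathway, measured 344 ± 3.14 FPKM in BSA libraries and 329 ± 4.88 with glucose (SD, n = 3), a level like that of NCF4. TALDO1 and TKT of the same pathway were at 66.5 ± 5.01 and 65.5 ± 1.23 FPKM with BSA. RPIA measured 50.2 ± 2.43 FPKM in BSA libraries and 55.7 ± 2.29 with glucose (limma adjusted p = 0.415).

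Heme synthesis, which provides the haem of CYBB, had 9 of 10 genes tested, 5 above and 4 below 0 with glucose. The share of all genes below 0 there was 50.4%. ALAS1, its first enzyme, measured 118 ± 2.71 FPKM in BSA libraries and 131 ± 3.68 with both agents (SD, n = 3; limma adjusted p = 0.777). CPOX and UROD were at 12.4 ± 1.33 and 10.2 ± 0.611 FPKM with BSA. PPOX measured 1.51 ± 0.1 FPKM in BSA libraries, 1.01 ± 0.138 with glucose and 1.48 ± 0.0226 with both agents (limma adjusted p = 0.161 for glucose).

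Transcription factors of oxidase genes lay below 0 with glucose in 10 of 12, at a median of -0.08, and none of the 12 had an unadjusted p under 0.05 there. Of all genes tested 50.4% lay below 0 with glucose and 10.0% had such a p (limma), and whether the list differs from them was not tested. CEBPB measured 184 ± 5.96 FPKM in BSA libraries, 194 ± 37 with AGEs, 162 ± 6.24 with glucose and 163 ± 2.73 with both agents (SD, n = 3). CEBPE, a factor of late granulocyte maturation, measured 167 ± 7.63 FPKM in BSA libraries, and SPI1, which encodes PU.1, at 141 ± 38.1. Charge and pH balance had 6 of 8 genes tested, with ATP6V1A at 21.6 ± 1.91, SLC4A2 at 19.5 ± 1.36 and CLCN7 at 15.1 ± 1.7 FPKM in BSA libraries. None of the 6 had an unadjusted p under 0.05 (limma) in any comparison with BSA. Over all genes 4.74%, 10.0% and 5.48% had such a p for AGEs, glucose and both agents.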

How the data were processed

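The authors deposited one table of gene-level FPKM values, per the file headers, with 1 column per library and no read counts, so depth per library is unknown and no counting interval was computed. Tools listed without role or order, per the submitters' processing notes, are STAR 2.5.2b, HISAT2 2.0.5, StringTie and cutadapt, with the build hg19. FPKM sums ran from 220444 to 233854. Values were analysed as log2(FPKM + 1), which understates the change of low genes. Rows with at least 1 FPKM in at least 3 libraries were kept (9751 of 10465). One fit of 4 group means over 12 libraries was made in limma 3.58.1 (R 4.3.3, statmod 1.5.0), with intensity trend and robust moderation, for 6 contrasts. Adjusted p-values are Benjamini-Hochberg over all genes of a contrast, with a threshold of 0.05. Ratios of 3 gene pairs were compared by an exact two-sided permutation test over 924 splits, which can go no lower than p = 0.00216. The fit and the permutation test were tested on simulated data. Transcript sharing and overlaps used GENCODE on GRCh38 by gene symbol, without coordinates. Pathway genes named are, per list, the 3 with the highest mean and the 1 with the smallest p for glucose over all groups. One gene this rule names is not reported here. Members and lists were chosen with earlier results of these data known. Alternatives were another pseudocount and filters, median and quantile scaling, no trend, library weights, a replicate block, fewer groups and leaving out libraries.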

Additional observations from a re-analysis of the deposited data

How the results depend on the processing

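None of the 9 oxidase genes was called in any of the 6 comparisons under any alternative run (limma). The smallest adjusted p for NCF1 with glucose was 0.0631, with library weights, and over its 22 alternatives it ran to 0.584; for CYBA with AGEs it ran from 0.452 to 0.999. Leaving out AGEs 1 and glucose 3 together was chosen after seeing the data. Read depth is unknown, so what it limits could not be assessed. The causes of the changes below were not tested.

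The count of genes called over the table was 3 for AGEs, 10 for glucose and 1 for both agents against BSA, 4 for glucose over all groups, and 1 each for AGEs over all groups and the interaction. With library weights these became 10, 127, 5, 16, 10 and 14. With only the groups compared the first 3 became 7, 5 and 0. Without AGEs 1 and glucose 3 they became 9, 73 and 4, with 0 for AGEs over all groups and 7 for the interaction. For AGEs over all groups no filter gave 2, a mean of at least 5 FPKM gave 3 and no trend with no robust moderation gave 0. For the interaction no filter gave 3, a mean of at least 5 FPKM gave 2 and median scaling gave 2, while quantile normalization gave 7 for glucose over all groups. Leaving out 1 library gave 2 to 6, 3 to 16, 1 to 3, 2 to 10, 0 to 5 and 0 to 4 in the same order.

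Replicate numbers are shared by the groups, and no pairing by number was seen. Deviations from the group means had correlations of -0.21 to 0.13 between same-numbered libraries of different groups (18 pairs). Differently numbered libraries of different groups gave -0.21 to 0.19 (36 pairs). With few libraries per group such a check cannot exclude pairing. A replicate block gave 2 calls for glucose, 2 for glucose over all groups and 0 for AGEs over all groups, and it changed no oxidase gene's call. The CYBA over CYBB comparison with AGEs had an exact permutation p of 0.0741 under the block.

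Uncalled log2 fold changes near 0 turned sign under some settings. Library weights gave CYBB 0.0063, NCF4 -0.029, VAV1 -0.027, PRKCD -0.054 and HVCN1 -0.039 for AGEs against BSA. It also gave RAC2 0.0051 and VAV1 -0.012 for glucose against BSA. The same setting gave CYBA 0.026, VAV1 0.0059 and HVCN1 -0.031 for glucose over all groups. It also gave CYBB 0.035, VAV1 -0.0086 and PRKCD -0.014 for AGEs over all groups. Leaving out AGEs 1 with glucose 3 gave CYBB 0.015, NCF4 -0.043, VAV1 -0.047 and PRKCD -0.057 for AGEs against BSA. It also gave RAC2 0.047 and VAV1 -0.033 for glucose against BSA. The same setting gave CYBA 0.037, VAV1 0.0033 and HVCN1 -0.038 for glucose over all groups. It also gave CYBB 0.040, NCF1 -0.0076, VAV1 -0.010 and PRKCD -0.014 for AGEs over all groups. Quantile normalization gave NCF4 -0.073, VAV1 -0.00039 and PRKCD -0.028 for AGEs against BSA. It also gave CYBA -0.017 and VAV1 -0.023 for glucose against BSA. The same setting gave RAC2 -0.0077 for both agents against BSA. It also gave NCF4 -0.046 and VAV1 -0.0038 for AGEs over all groups. Median scaling gave VAV1 0.0019 for both agents against BSA.

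For AGEs against BSA, leaving out 1 library at a time turned the sign within these ranges: CYBB -0.097 to 0.015, NCF4 -0.043 to 0.063, VAV1 -0.047 to 0.081, PRKCD -0.057 to 0.055 and HVCN1 -0.081 to 0.095. For glucose against BSA these were CYBA -0.045 to 0.11, RAC2 -0.097 to 0.047 and VAV1 -0.033 to 0.044. For both agents against BSA these were VAV1 -0.031 to 0.035. For glucose over all groups these were CYBA -0.063 to 0.015, VAV1 -0.043 to 0.021 and HVCN1 -0.037 to 0.053. For AGEs over all groups these were CYBB -0.024 to 0.033, NCF4 -0.0031 to 0.058, RAC1 -0.020 to 0.0067, VAV1 -0.028 to 0.036 and PRKCD -0.022 to 0.034. The log2 ratio of CYBA over CYBB differed with glucose by -0.039 to 0.088. The log2 ratio of CYBA over CYBB differed with AGEs by 0.13 to 0.23. The log2 ratio of NCF1 over NCF4 differed with glucose by -0.053 to 0.020. The log2 ratio of NCF1 over NCF4 differed with AGEs by -0.044 to 0.043. The log2 ratio of RAC2 over RAC1 differed with glucose by -0.13 to -0.060. The CYBA over CYBB difference with AGEs had an unadjusted exact permutation p under 0.05 when AGEs 3 or glucose 2 was left out. That p was 0.123 without AGEs 1 and 0.126 without glucose 3. RAC2 over RAC1 with glucose had an exact permutation p under 0.05 when BSA 3 was left out, and of 0.253 without glucose 3.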
